A study of Rattus norvegicus with 6 samples.

Results

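Notch signaling was followed here through 10 genes: the receptor genes Notch1, Notch2 and Notch3, the ligand gene Jag1, the transcriptional repressor genes Hes1, Hes5, Hey1, Hey2 and Heyl, and the feedback inhibitor gene Nrarp. They were taken by name, with earlier results of these data known. All 10 had a value on every array, from 1 probe set each, among 13355 genes measured. Transcripts were quantified on Affymetrix rat gene arrays in cultured oligodendrocyte progenitor cells (OPCs), the dividing glia that produce the myelin-forming oligodendrocytes. The fibrinogen group comprised 3 arrays of primary rat OPCs given the blood clotting protein fibrinogen for 48 h in differentiation medium, and the control group comprised 3 arrays of unstimulated OPCs titled with the same 48 h, whose medium is not stated separately. In both groups the OPCs were prepared from rat pups (postnatal day 1 to 2) and had recovered in medium with PDGF and NT3. No strain or genotype is given in the labels. Nothing in the labels says whether the arrays of a group came from separate cultures or animals, so p-values measure the spread between these arrays, which may be technical.

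A Notch receptor is a membrane protein that is cut when a ligand on a neighbouring cell binds it. An ADAM protease and then the gamma-secretase complex release its intracellular part, which joins the DNA-binding protein RBPJ and a Mastermind coactivator in the nucleus and switches on genes such as those of the Hes and Hey repressors and Nrarp. In the oligodendrocyte lineage, Notch1 engaged by Jagged1 is known for holding progenitors back from differentiation, whereas contactin is known as a ligand of Notch1 that favours it. Hes1 and Hey1 can also be induced by BMP signaling, the pathway named in the series title.

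RBPJ sites in the promoters of effector genes are the textbook route from a cut receptor to transcription. RefSeq promoter windows (build GRCr8, 250 bases before and 50 bases from the annotated gene start on, gene strand) were found for 9 of the 10 genes, all but Hey1. They were searched on both strands for the RBPJ core GTGGGAA and for the shorter TGGGAA, which every GTGGGAA contains. Printed are the windows of Hes1, Hes5 and Hey2, chosen because they held the RBPJ core, and that of Nrarp, a gene that rose with no match in its window. In the sequences, written 5′ to 3′, capitals mark these matches on either strand, so that TTCCCA is a match on the opposite strand.
Hes1: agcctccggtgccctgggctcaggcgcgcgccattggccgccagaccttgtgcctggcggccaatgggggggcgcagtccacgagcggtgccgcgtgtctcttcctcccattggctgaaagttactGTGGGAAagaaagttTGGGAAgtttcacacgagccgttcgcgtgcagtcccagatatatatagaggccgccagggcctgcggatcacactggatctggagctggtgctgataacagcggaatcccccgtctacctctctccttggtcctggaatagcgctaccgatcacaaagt
Hes5: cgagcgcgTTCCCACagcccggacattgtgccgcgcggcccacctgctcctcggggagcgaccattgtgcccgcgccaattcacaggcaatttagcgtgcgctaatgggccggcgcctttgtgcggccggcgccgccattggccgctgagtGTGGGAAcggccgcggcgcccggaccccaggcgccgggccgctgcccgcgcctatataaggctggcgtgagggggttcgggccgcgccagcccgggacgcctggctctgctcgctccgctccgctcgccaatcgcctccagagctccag
Hey2: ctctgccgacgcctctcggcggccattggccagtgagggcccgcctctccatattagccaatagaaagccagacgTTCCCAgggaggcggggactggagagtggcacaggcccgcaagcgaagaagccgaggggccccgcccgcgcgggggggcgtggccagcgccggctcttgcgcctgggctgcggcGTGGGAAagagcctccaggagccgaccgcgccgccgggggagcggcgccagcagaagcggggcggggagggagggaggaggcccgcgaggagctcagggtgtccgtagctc
Nrarp: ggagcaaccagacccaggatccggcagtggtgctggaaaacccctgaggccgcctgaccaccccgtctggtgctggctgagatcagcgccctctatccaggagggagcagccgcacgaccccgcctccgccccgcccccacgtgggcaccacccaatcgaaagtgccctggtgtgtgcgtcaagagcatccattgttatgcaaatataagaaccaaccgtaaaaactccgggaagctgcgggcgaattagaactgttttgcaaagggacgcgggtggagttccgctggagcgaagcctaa

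The Hes1 window (chr11:84212996-84213295, minus strand) held GTGGGAA at bases -124 to -118 and a second TGGGAA at -109 to -104, both on the gene strand, counted from the start with no base 0. The Hes5 window (chr5:170804327-170804626, plus strand) held GTGGGAA at -242 to -236 on the opposite strand and at -99 to -93 on the gene strand. In Hey2 (chr1:28640850-28641149, plus strand) GTGGGAA lay at -61 to -55 on the gene strand and TGGGAA at -175 to -170 on the opposite strand. The Nrarp window (chr3:28390495-28390794, plus strand) held neither, and those of Notch1, Notch2, Jag1 and Heyl did not either, while that of Notch3 held TGGGAA at bases 43 to 48. Among all 33469 promoters of the same length, 6.3% held GTGGGAA at least once and 0.2% at least 2 times, and 25.7% held TGGGAA, 3.8% at least 2 times. The windows of the 9 genes were richer in G and C, at 58.0% to 73.3%, than the median window (51.7%). The N-box CACNAG, to which Hes repressors bind, was found 4 times in the Hes1 window, 4 times in that of Notch1 (a pair of these overlapping on opposite strands), 2 times in Nrarp and once in Notch3; 43.1% of all promoters held it. The Nrarp window also held the E-box CACGTG, found in 6.4% of promoters. A match is a run of letters and not a site shown to be bound, and its absence covers only this window.

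**Figure D1:**
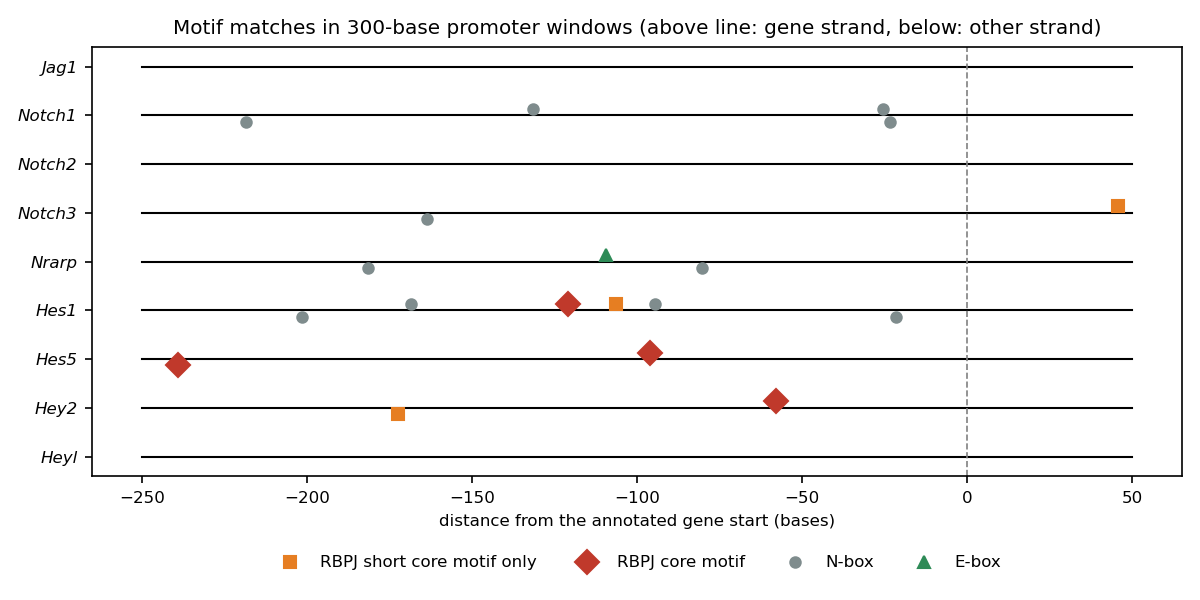
Positions of motif matches in the promoter windows of 9 Notch genes, with the distance from the annotated gene start in bases on the horizontal axis and symbols above a line for the gene strand and below it for the opposite strand. Red diamonds (GTGGGAA) stand in Hes1, Hes5 and Hey2, orange squares are TGGGAA matches outside a GTGGGAA, grey circles are N-boxes (CACNAG) and the green triangle is the E-box (CACGTG) of Nrarp.

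With fibrinogen, 4 of the 10 genes rose: the repressor genes Hes1 and Hey1, the receptor gene Notch1 and the inhibitor gene Nrarp. None fell past the threshold (an adjusted p of 0.05 in limma, Benjamini-Hochberg over all 13355 genes), and 6 did not pass. In such bulk RNA, more cells of a type and more RNA per cell cannot be told apart. Over all genes, 4.16% were called higher and 3.00% lower. The log2 fold changes of the 10 genes ran from -0.32 to 1.06 with a median of 0.27, and 8 were above 0. Over all genes the median was 0.003. The groups did not overlap for 5 of the 10 genes, against 27.0% of all genes: the fibrinogen arrays lay wholly above the control arrays for the 4 genes that rose and wholly below them for Jag1. With 1 array left out the number called fell as low as 1, without fibrinogen 1, without fibrinogen 3 and without control 3. It was 2 without fibrinogen 2 or control 1 and 3 without control 2.

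**Figure D2:**
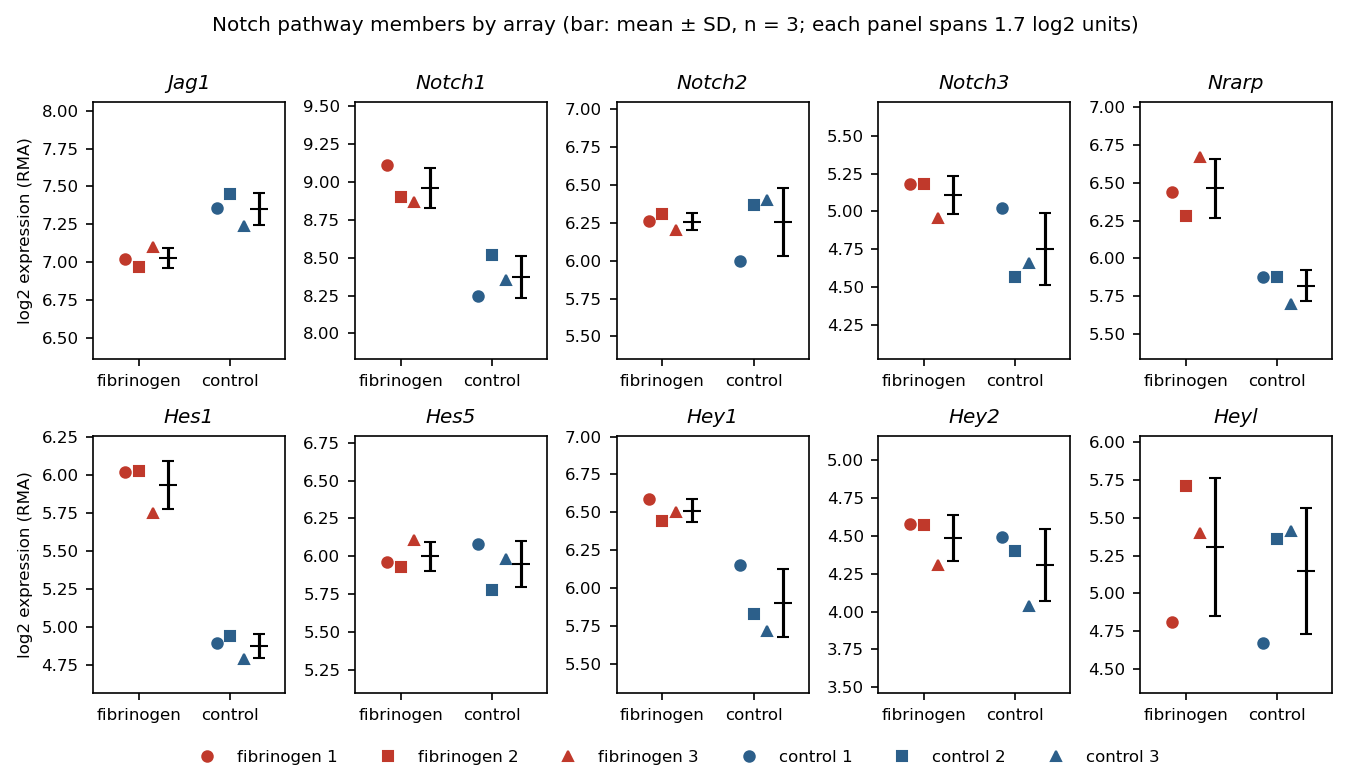
Log2 expression (RMA) of the 10 Notch genes on each array, with the fibrinogen arrays in red at the left of each panel and the control arrays in blue at the right, and bars for the mean ± SD of 3 arrays. The groups do not overlap for Notch1, Nrarp, Hes1 and Hey1 (fibrinogen higher) and for Jag1 (fibrinogen lower), and Heyl has the widest spread.

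Jag1 encodes Jagged1, a transmembrane ligand that activates Notch receptors on adjacent cells. Its log2 expression, as summarised from the probes and normalized by the authors, was 7.02, 6.97 and 7.10 on the fibrinogen arrays, against 7.36, 7.45 and 7.24 on the control arrays. Every fibrinogen value was under every control value. The log2 fold change of -0.32 (SE 0.09, 95% interval -0.52 to -0.12) did not pass the adjusted test in limma (adjusted p = 0.0727). It did pass with arrays centred on their medians (adjusted p = 0.0473), without genes below the median probe (0.0211), without the dimmest 25% of genes (0.0398) and with an intensity trend (0.0392). It did not pass with the unmoderated test (adjusted p = 0.118), the mean of a gene's probes (0.0728), the replicate block (0.185) or any one array left out (0.0906 to 0.205). The change was negative in each of these fits.

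Notch1 encodes the receptor best known in OPCs. It measured 9.11, 8.90 and 8.87 on the log2 scale with fibrinogen, against 8.25, 8.52 and 8.35 in control. The lowest fibrinogen array, at 8.87, stood above the highest control array. It rose 1.5-fold (log2 fold change 0.59, SE 0.11, 95% interval 0.34 to 0.83, limma adjusted p = 0.021). Only with control 2 left out did the call hold; leaving out any of the other arrays ended it (adjusted p from 0.0542 to 0.0748), as did the unmoderated test, which uses each gene's own spread alone (adjusted p = 0.086).

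Notch2 encodes a second receptor of the family. It stood at 6.26, 6.31 and 6.20 in the fibrinogen arrays and 6.0, 6.37 and 6.40 in the control arrays. Control 1 was the lowest of all arrays and the other controls the highest, so the fibrinogen values fell between the control values. The group means were the same to 2 decimals (6.26 ± 0.06 with fibrinogen and 6.26 ± 0.22 in control, SD, n = 3 each), with a 95% interval of -0.28 to 0.28 around a log2 fold change of 0, which moved to -0.13 without control 1.

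Notch3, a receptor gene prominent in pericytes and vascular smooth muscle, had 5.18, 5.18 and 4.96 with fibrinogen, against 5.02, 4.57 and 4.66 in control. The groups overlapped through control 1, which lay above fibrinogen 3. The log2 fold change was 0.36 (95% interval 0.04 to 0.67) and did not pass (limma adjusted p = 0.181). Its probe was dimmer than the median probe of the arrays.

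Nrarp encodes a small ankyrin-repeat protein that is induced by Notch and limits the activity of the released receptor fragment. It measured 6.44, 6.28 and 6.67 with fibrinogen, against 5.88, 5.88 and 5.70 in control. All fibrinogen values were above the controls, with fibrinogen 3 the highest. Nrarp rose 1.56-fold (log2 fold change 0.64, SE 0.12, 95% interval 0.37 to 0.92, limma adjusted p = 0.0216). Leaving out fibrinogen 1, fibrinogen 3, control 1 or control 3 ended the call (adjusted p from 0.0511 to 0.0795), as did the unmoderated test (adjusted p = 0.0968).

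Hes1, a basic helix-loop-helix repressor that holds back differentiation genes and its own promoter, changed most among the 10 genes. Its log2 expression was 6.02, 6.03 and 5.75 with fibrinogen, against 4.89, 4.94 and 4.79 in control. The lowest fibrinogen value, 5.75, was far above the highest control value, 4.94, and the means were 5.93 ± 0.16 with fibrinogen and 4.87 ± 0.08 in control (SD, n = 3 each). The log2 fold change was 1.06 (SE 0.10, 95% interval 0.82 to 1.30, limma adjusted p = 0.00272). This was the 29th largest rise among the 13355 genes. It kept its call without any one array (adjusted p from 0.0113 to 0.019). The Hes1 probe was below the median probe over all arrays, so it was not in the alternative that left such genes out.

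Hes5, the other Hes gene of the set and also a classical Notch target, measured 5.96, 5.93 and 6.11 with fibrinogen, against 6.08, 5.78 and 5.98 in control. The arrays of the groups were interleaved. Its log2 fold change was 0.05 (95% interval -0.19 to 0.29, limma adjusted p = 0.823), and between -0.03 and 0.12 with an array left out. The promoter windows of Hes1 and Hes5 printed above each held the RBPJ core.

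Hey1 encodes a repressor of the Hes-related Hey family. It measured 6.59, 6.44 and 6.50 with fibrinogen, against 6.15, 5.83 and 5.72 in control. The groups did not overlap, and control 1 was the highest control. Hey1 rose 1.53-fold (log2 fold change 0.61, SE 0.12, 95% interval 0.33 to 0.89, limma adjusted p = 0.0292). Of the 6 fits with an array left out, the call held in the one without control 1 and ended in the others (adjusted p from 0.0793 to 0.11). It ended with the unmoderated test as well (adjusted p = 0.117).

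Hey2, a second member of that family, had 4.58, 4.57 and 4.31 on the log2 scale with fibrinogen, against 4.49, 4.40 and 4.04 in control. The groups overlapped, since fibrinogen 3 lay under control 1 and control 2. The log2 fold change was 0.18 (95% interval -0.15 to 0.50, limma adjusted p = 0.536), and ran from 0.04 without control 3 to 0.27 without control 1. Heyl, the third Hey gene, had 4.81, 5.71 and 5.40 with fibrinogen, against 4.67, 5.36 and 5.41 in control. The number 1 array was the lowest in each group. The log2 fold change of Heyl was 0.16 (95% interval -0.48 to 0.80, limma adjusted p = 0.798), and its value ran from -0.08 to 0.41 as single arrays were left out. The probes of both genes were dimmer than the median probe. The SD of Heyl within a group was up to 0.46, while that of the other 9 genes did not exceed 0.24 in either group.

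**Figure D3:**
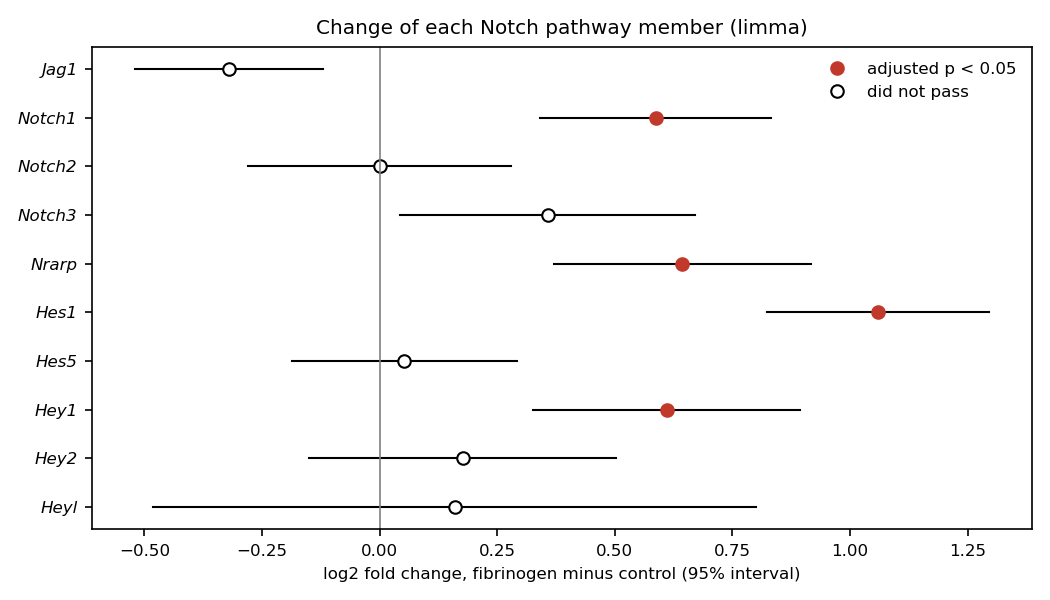
Log2 fold change (fibrinogen minus control) of each Notch gene with its 95% interval from limma, from ligand at the top through receptors and Nrarp to the Hes and Hey repressors. Filled points (Notch1, Nrarp, Hes1, Hey1) passed an adjusted p of 0.05, and the interval of Notch2 runs from -0.28 to 0.28 while that of Hes1 begins at 0.82.

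The changes of genes of the same family were compared in 7 pairs, by the log2 difference of the pair on each array. These pairs were added after the changes of the single genes had been seen, so they describe the same values again. The log2 change of Hes1 exceeded that of Hes5 by 1.01, that of Notch1 exceeded that of Notch2 by 0.59, and that of Hey1 exceeded that of Hey2 by 0.43. For these pairs the difference did not overlap between the groups (exact permutation, two-sided, p = 0.1, which is the lowest that 3 arrays against 3 can give, and 0.233 after Benjamini-Hochberg adjustment over the 7 pairs). For Notch1 and Notch3 the changes differed by 0.23 (exact permutation p = 0.5), and for Hey1 and Heyl by 0.45 (p = 0.4). The changes of Notch2 and Notch3 differed by -0.36 (exact permutation p = 0.4) and those of Hey2 and Heyl by 0.02 (p = 1). With 3 arrays a group none of these comparisons could pass 0.05.

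**Figure D4:**
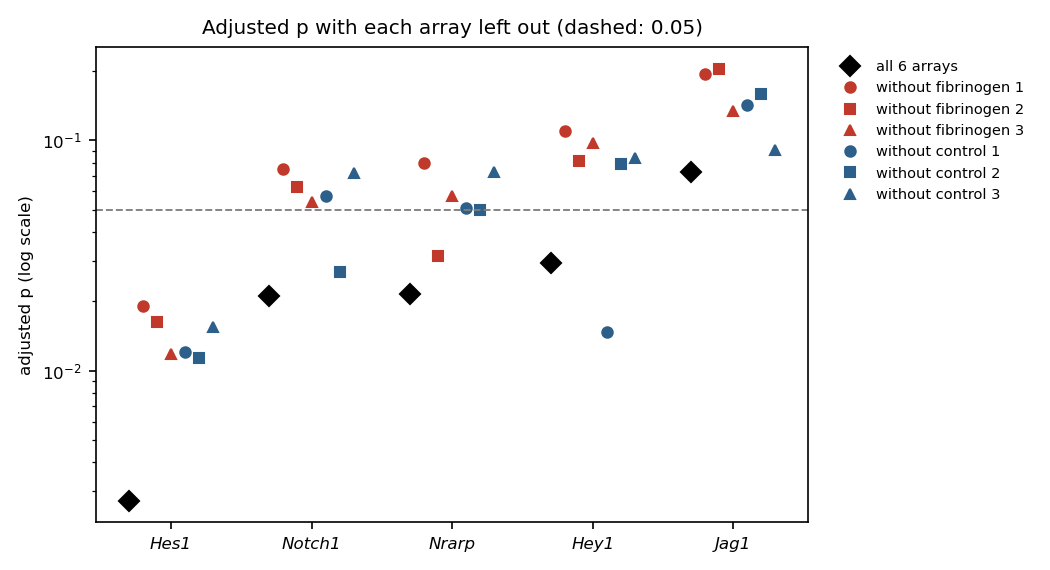
Adjusted p from limma (log scale) for the 4 Notch genes that rose and for Jag1, with all 6 arrays (black diamonds) and with each array left out (red without a fibrinogen array, blue without a control array); the dashed line is 0.05. All points of Hes1 lie under the line, up to 0.019, while those of Notch1, Nrarp and Hey1 lie on both sides.

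The 3 genes whose values followed Hes1 most closely over the 6 arrays were Sat2 and Gins3 (Pearson r = 0.998 each) and Aaas (r = 0.997), the highest of 13354 correlations. These r values describe 6 arrays in 2 groups and carry the group difference of Hes1 itself. The log2 fold changes were 0.71 for Sat2 (limma adjusted p = 0.00556), 0.42 for Gins3 (0.0202) and 0.20 for Aaas (0.15).

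Beyond the 10 genes, 66 other symbols of the pathway were listed by role, Tle5 under an older symbol (Aes) as well, and 51 genes were measured. In this wider set 4 rose, 3 fell and 44 did not pass, and the median log2 fold change was -0.02. Either call was made for 7.16% of all genes. The groups did not overlap for 11 of the 51 genes upward and 8 downward, against 1998 upward and 1605 downward of all 13355 genes. In the main fit the calls in the wider list went in both directions, and those among the 10 genes were all increases. Jag1 was called lower in some of the alternative fits. Both lists were chosen with earlier results of these data known, so the contrast only describes these lists.

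Among 9 ligands, counting the non-canonical Dlk1, Dlk2 and Dner and the contactins Cntn1 and Cntn6, none passed, and the log2 fold changes lay between -0.20 and 0.29. Dll1, a Delta ligand, measured 6.41, 6.47 and 6.42 with fibrinogen, against 5.94, 6.36 and 6.13 in control (limma adjusted p = 0.196). Dll3, a Delta relative that does not activate receptors on other cells, was at 0.11 (adjusted p = 0.45). Notch4, the remaining receptor gene, was at -0.12 (95% interval -0.53 to 0.30) from a probe dimmer than the median, with -0.30 without fibrinogen 1 and values just above 0 without fibrinogen 3 or control 1. Fringe enzymes add sugars to the receptor and shift its preference between ligands. Lfng, one of them, was at 0.60 (95% interval 0.14 to 1.07, adjusted p = 0.13), and another, Mfng, at -0.54 (95% interval -1.0 to -0.07, adjusted p = 0.174); neither passed. Mfng, whose probe was dimmer than the median, was at -0.31 without control 3, its highest control, and at -0.74 without control 2. Without control 2, the highest of the Lfng controls, Lfng did pass (adjusted p = 0.0246), and with all arrays it passed under the intensity trend (0.035).

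Of 7 measured genes of receptor cleavage, 2 fell and 5 did not pass. Psen2, a catalytic presenilin of gamma-secretase, measured 5.69, 5.49 and 5.56 with fibrinogen, against 6.22, 6.26 and 6.17 in control. It fell 1.56-fold (log2 fold change -0.64, SE 0.08, limma adjusted p = 0.00591) and kept its call without any one array. Adam17, a protease that can cut Notch at the cell surface, measured 7.61, 7.64 and 7.83 with fibrinogen, against 8.12, 8.15 and 8.20 in control. It fell 1.38-fold (adjusted p = 0.0229), a call that held without fibrinogen 3 and ended when any of the other arrays was left out (adjusted p up to 0.0903). Aph1b and Psenen, further gamma-secretase subunits, were at -0.41 and -0.10 (adjusted p = 0.203 and 0.634).

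Numb, an adaptor that marks Notch for endocytosis and opposes its signal, rose. It measured 7.42, 7.33 and 7.40 with fibrinogen, against 6.74, 6.85 and 6.75 in control, a 1.52-fold difference (log2 fold change 0.60, SE 0.07, limma adjusted p = 0.00522). The call was kept without any one array (adjusted p up to 0.0333). The other 6 measured genes of endocytosis and turnover did not pass. Among them were the ubiquitin ligase gene Dtx4 at 0.40 (adjusted p = 0.0566, 0.0495 without control 3 and 0.0313 without the dimmest 25% of genes) and the Numb relative Numbl at 0.21 (adjusted p = 0.199).

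None of 6 genes of the nuclear complex passed. Rbpj, the DNA-binding protein through which the released receptor acts, stood at 9.02, 8.95 and 8.93 with fibrinogen, against 9.29, 9.14 and 9.04 in control (log2 fold change -0.19, 95% interval -0.40 to 0.02). Maml1, a Mastermind coactivator, was at -0.16 (95% interval -0.35 to 0.03). The Groucho family supplies corepressors that Hes proteins recruit. In it Tle3 rose by 0.41 (8.27, 8.30 and 8.26 with fibrinogen, against 7.95, 7.81 and 7.84 in control, limma adjusted p = 0.0216). Tle4 fell by 0.50 on the log2 scale (8.18, 8.16 and 8.36 with fibrinogen, against 8.78, 8.77 and 8.64 in control, adjusted p = 0.0205). Tle1 and Tle2 were at -0.45 and -0.16 (adjusted p = 0.192 and 0.303). Tle3 passed when control 1 was left out and not when any of the other arrays was (adjusted p up to 0.0846). Leaving out fibrinogen 1, fibrinogen 2, control 1 or control 2 ended the call of Tle4 (adjusted p up to 0.0841).

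Of 6 other repressors of the Hes type or related to it, Bhlhe41 rose and 5 did not pass. Bhlhe41 (DEC2, a repressor also known from the circadian clock) measured 6.58, 6.43 and 6.38 with fibrinogen, against 5.47, 5.78 and 5.91 in control (log2 fold change 0.74, SE 0.13, limma adjusted p = 0.0169). The call was lost without any one fibrinogen array (adjusted p up to 0.0744). Hes6, which acts against Hes1, was at -0.29 and Bhlhe40 at -0.30 (adjusted p = 0.0848 and 0.255). Hes6 passed without genes below the median probe (adjusted p = 0.0248) and without the dimmest 25% of genes (0.046). Bhlhe40 was at -0.16 without fibrinogen 1. Among 6 measured proneural and lineage helix-loop-helix genes, a class that includes targets and partners of Hes repressors, Olig1 rose and 5 did not pass. Olig1, a factor of the oligodendrocyte lineage, measured 11.32, 11.27 and 11.35 with fibrinogen, against 10.83, 10.82 and 10.90 in control (log2 fold change 0.46, adjusted p = 0.0118). Leaving out fibrinogen 1 or fibrinogen 3 ended that call (adjusted p = 0.056 and 0.0542). Tcf3 and Tcf12, partners of many such factors, were at 0.20 and 0.07 (adjusted p = 0.169 and 0.718). With the unmoderated test, the calls of Adam17, Tle4 and Bhlhe41 ended too (adjusted p = 0.0633, 0.0633 and 0.0915).

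**Figure D5:**
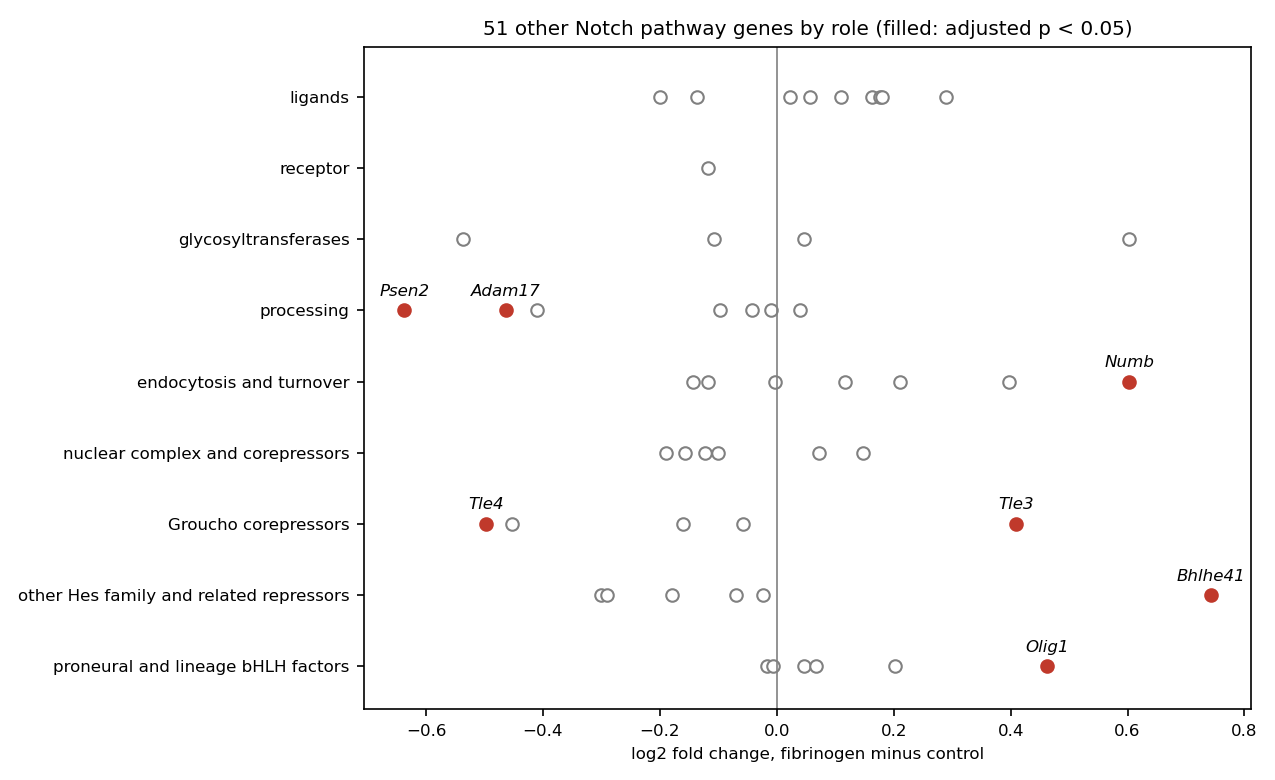
Log2 fold change (fibrinogen minus control) of 51 other Notch pathway genes, 1 point a gene, in rows by role, with filled and named points for adjusted p under 0.05 in limma. Psen2, Adam17 and Tle4 lie left of 0, and Numb, Tle3, Bhlhe41 and Olig1 right of it.

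Several of these genes are also active in astrocytes, vessel cells and neurons, and their markers were read on the same arrays. Of 9 measured astrocyte markers, 4 rose (Gfap, Slc1a2, Slc1a3 and Fgfr3) and 5 did not pass. The log2 fold changes of these 5 were -0.24 for Aqp4, -0.23 for Gjb6, -0.10 for Gja1, -0.09 for S100b and 0.04 for Aldoc, and the median of the 9 was 0.04. The mean log2 level of the 9 was 7.79 to 7.80 over the fibrinogen arrays, against 7.52 to 7.56 over the control arrays. Their part in the rises of Hes1, Hey1, Notch1 and Nrarp was not tested. Progenitor markers were bright (mean level 10.47 to 10.54 with fibrinogen, against 10.16 to 10.25 in control). Of 6 measured, 3 were higher (Pdgfra, Cspg4 and Olig1) and 3 did not pass. The log2 fold changes of the latter were 0.27 for Ptprz1, -0.09 for Sox10 and -0.14 for Gpr17. Of 5 mature oligodendrocyte markers, 3 were lower (mean level 9.08 to 9.16 with fibrinogen, against 9.44 to 9.54 in control). All 6 endothelial and all 7 pericyte and smooth muscle markers measured were dimmer than the median probe, and none passed. Their mean levels were 3.85 to 4.13 and 4.21 to 4.29 with fibrinogen, against 3.90 to 4.27 and 4.20 to 4.39 in control. All 7 microglia markers were also dimmer than the median probe (4.09 to 4.18 with fibrinogen, against 4.32 to 4.46 in control), and 1 of them, Itgam, was lower. Among 6 neuron markers, 2 were higher and 1 lower (mean level 7.41 to 7.58 with fibrinogen, against 7.46 to 7.56 in control). These similar means hold opposite changes: log2 fold changes of 0.90 for Elavl4 and 0.38 for Stmn2, and -1.16 for Syt1. Those that did not pass were Tubb3 at -0.26, Rbfox3 at -0.02 and Snap25 at 0.07.

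Pearson correlations over all valued probes were 0.990 to 0.994 between arrays of a group and 0.985 to 0.991 between arrays of different groups. Control 1 matched the other arrays least well: its highest correlation with any array was 0.991, against 0.993 to 0.994 for each of the others. It also had the lowest median log2 value, 5.78, against 5.80 for control 2 and control 3. The median was 5.84 for each fibrinogen array, so the medians of the groups did not overlap. With arrays centred on their medians, the log2 fold change of Hes1 was 1.01 instead of 1.06.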

How the data were processed

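The authors' deposited log2 expression values, 1 per probe set and array, were used. Per the submitters' processing notes the tools were RMA and limma (no versions); settings and genome build are not given in the sources used here. From 26312 probes, 23631 had a value on every array. No detection call accompanies them, so whether a dim probe is above background is unknown, and the number of arrays limits the precision (median SE of a log2 fold change 0.104).

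Probes were named from the platform annotation. The 14083 valued probes with 1 symbol gave 13355 genes, each by its brightest probe on average. Fibrinogen minus control was fitted without covariates by lmFit and tested two-sided by eBayes (limma 3.58.1 under R 4.3.3), with Benjamini-Hochberg adjustment over all genes. The fit was also run on simulated arrays with independent normal noise of the spread it had estimated. Such arrays meet the model's assumptions by design, so the run checks the computation and not those assumptions. Family pairs, and the alternatives for single named genes outside the 10, were added after seeing the data; those for the counts of calls were planned.

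Named were all 10 genes, per role of the wider list every gene past the threshold and up to 2 more with the smallest p, and the 3 genes closest to Hes1. The members and lists were chosen with earlier results of these data known.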

Additional observations from a re-analysis of the deposited data

How the results depend on the processing

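Hes1 kept its direction and call under every alternative it entered, and no called gene among the 10 changed sign. The number of the 10 genes called was 4. It was 5, with Jag1 added as lower, under median centring, without the dimmest 25% of genes and with the intensity trend, 4 with the mean of a gene's probes, and 4 without genes below the median probe, where Jag1 was called and Hes1 did not enter. It was 1 with the replicate block and 1 with the unmoderated test, and ranged from 1 to 3 with an array left out. Of the wider list, 7 genes were called, against 2 with the replicate block, 4 with the unmoderated test and 2 to 6 with an array left out. Over all genes, 956 were called, against 343 with the replicate block, 500 with the unmoderated test, 1508 without genes below the median probe, 1639 with an intensity trend, and 358 to 592 with an array left out; median centring split 950 calls into 434 higher and 516 lower, against 555 and 401. Fibrinogen and control arrays share replicate numbers. Deviations of same-numbered arrays from their group means correlated at 0.02, -0.14 and -0.07 over all genes. With 3 arrays a group these values cannot show whether the numbers pair the arrays, and the labels do not say. With the replicate block the SE went from 0.273 to 0.104 for Heyl and from 0.105 to 0.12 for Notch1. Why the counts moved was not tested, except that an array left out means fewer samples. The dimness of the probes of Hes1, Notch3, Hey2 and Heyl limits what their values show.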
